A study of Arabidopsis thaliana with 6 samples.

Results

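The dehydrin and other late embryogenesis abundant (LEA) type genes described here are AT4G38410, COR47 (AT1G20440), COR15A (AT2G42540) and AT5G66780, 4 genes of the 13355 that a probe set could be named for. They are set by locus and were chosen by earlier results of the same comparison of the mutant with Col er-2, so their own differences are given as descriptions, without a test. Each gene had 1 probe set of its own, a group of short oligonucleotides on the array that report 1 transcript, so no choice between probe sets was needed. The signals came from Affymetrix ATH1 arrays of Arabidopsis thaliana root tips, 3 of a quadruple mutant and 3 of Col er-2.

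The mutant carried athb8-11, cna-2, phb-13 and phv-6, which are alleles of ATHB8, CNA, PHB and PHV, 4 genes of the HD-ZIP III family (class III homeodomain-leucine zipper transcription factors). The labels list no allele of REV, the other family member, and do not say whether the mutant also carries er-2. Col er-2, the wild type of the study, carries an allele of ERECTA. No treatment is given for either genotype. All plants were grown at 22 °C with 18 h of light and 6 h of dark. Seedlings were sampled 4 days after germination, and about 200 primary root tips of 0.5 mm made up a replicate. Each replicate is therefore a pool of many seedlings and of all tissues of the tip, so more cells of a type and more RNA per cell cannot be told apart. The question of the design was which transcripts of the tip differ when these HD-ZIP III genes are mutated.

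LEA proteins are hydrophilic and largely unfolded, and they shield membranes and enzymes when cells lose water. Many accumulate in drying seeds, and a subset is induced in vegetative tissue by cold, drought, salt or abscisic acid. Dehydrins are the LEA group with lysine-rich K segments, which fold into helices on membranes. COR47 is an acidic dehydrin induced by cold and dehydration, whereas COR15A is a small protein imported into plastids, where it protects membranes during freezing. AT4G38410 belongs to the dehydrin family. AT5G66780 has neither a symbol nor a description in the gene tables used here and is given by its locus. Its place among the LEA-type genes rests on general knowledge and was not checked against a table.

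The pair AT4G38410 and AT5G66780 had higher signals on every mutant array than on any Col er-2 array, by 2.23-fold and 2.26-fold on average, while the signals of COR47 and COR15A overlapped between the genotypes. The groups thus did not overlap for 2 of the 4 genes, both higher in the mutant. Over all 22746 probe sets tested, the groups did not overlap for 13.1%, and for 7.55% with the mutant higher. None of the 4 genes (0 of 4) was called, which means a Benjamini-Hochberg adjusted p under 0.05 in limma's test over all probe sets, and 0.0264% of all probe sets were called. Because the genes were chosen on this contrast, nothing is read from these shares.

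**Figure D1:**
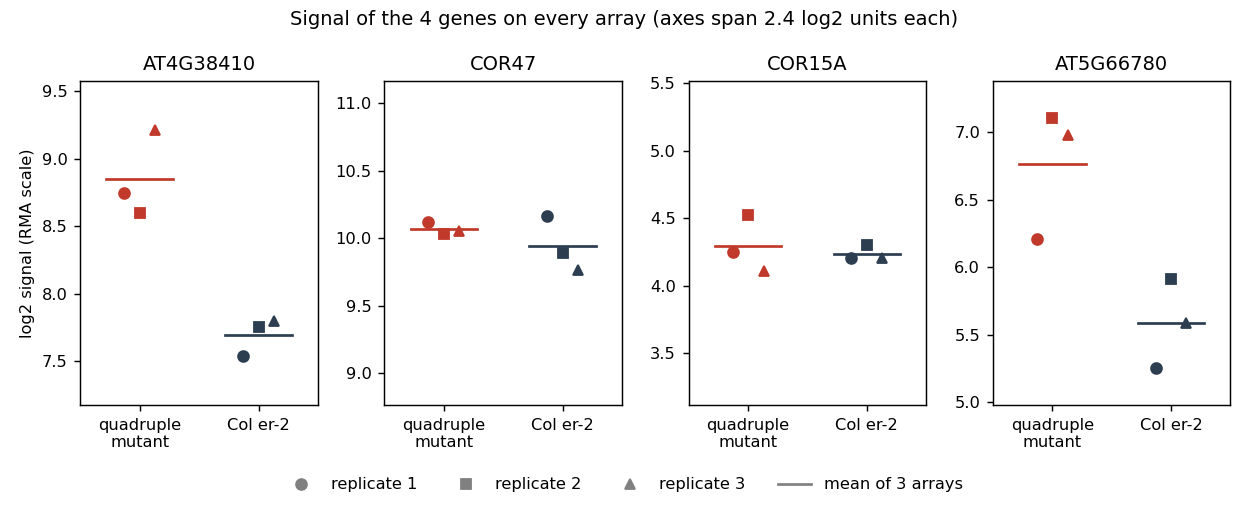
Log2 signal of each of the 4 genes (vertical axis, each panel spanning the same length in log2 units) on the 3 quadruple mutant and the 3 Col er-2 arrays, with marker shape for the replicate number and a line at the mean of 3 arrays. The mutant and Col er-2 points are apart for AT4G38410 and AT5G66780 and interleaved for COR47 and COR15A.

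For the dehydrin gene AT4G38410, the log2 signals were 8.75, 8.60 and 9.21 in mutant replicates 1, 2 and 3, against 7.54, 7.75 and 7.80 in Col er-2 replicates 1, 2 and 3. The lowest mutant array lay 0.80 above the highest Col er-2 array, a gap larger than the range within either genotype. The means were 8.85 ± 0.32 in the mutant (SD, n = 3) and 7.70 ± 0.14 in Col er-2. Their log2 difference was 1.15 with a standard error of 0.16, or 2.23-fold in signal. By size of increase it ranked 4 among the 22746 probe sets. The spread within genotypes, an SD of 0.25, was wider than that of 91.7% of the probe sets, and the difference was 4.69 times this SD. Mutant replicate 3 was the highest array, and without it the difference was 0.97.

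AT5G66780 had log2 signals of 6.21, 7.10 and 6.98 in mutant replicates 1, 2 and 3, against 5.26, 5.91 and 5.59 in Col er-2 replicates 1, 2 and 3. Replicate 1 was the lowest array of its genotype in both, and the lowest mutant array lay only 0.30 above the highest Col er-2 array. The gap was thus narrower than the range within each genotype. Means were 6.76 ± 0.49 in the mutant (SD, n = 3) and 5.59 ± 0.33 in Col er-2, and the log2 difference of 1.18 (standard error 0.25) ranked 2 in size of increase. Its SD within genotypes of 0.41 was wider than that of 98.2% of the probe sets. Between arrays of the same replicate number the differences were 0.95, 1.19 and 1.39, a narrower range than that of the signals themselves. Leaving out mutant replicate 1 gave 1.46, the highest value with any single array left out.

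COR47, the acidic dehydrin, had log2 signals of 10.12, 10.03 and 10.05 in mutant replicates 1, 2 and 3, against 10.17, 9.89 and 9.76 in Col er-2 replicates 1, 2 and 3. The mutant arrays lay close together inside the range of Col er-2. The log2 difference was 0.13 with a standard error of 0.11. Without Col er-2 replicate 1, the highest of the 6 arrays, the difference was 0.24, and without Col er-2 replicate 3, the lowest, it was 0.04. Same-numbered arrays differed by -0.05, 0.14 and 0.29, so the sign was not the same in every pair.

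COR15A, the plastid protein gene, had log2 signals of 4.25, 4.53 and 4.11 in mutant replicates 1, 2 and 3, against 4.20, 4.30 and 4.21 in Col er-2 replicates 1, 2 and 3. All of these lay low on the arrays, whose median signals were between 5.56 and 5.59, and its mean was at the 18.4th percentile of all probe sets. The table holds no detection calls, so this low signal is not read as absence of the transcript, and the difference is that of a signal near the lower end of the scale. The log2 difference was 0.06 with a standard error of 0.11. Its sign rested on mutant replicate 2, without which it was -0.06. The adjacent paralogue COR15B, with 0 protein-coding genes between them in TAIR10.1, had signals of 4.42, 4.92 and 4.56 in the mutant and 4.70, 4.67 and 4.78 in Col er-2, likewise low and overlapping. Probes of such near copies may share signal, and how the probe sets were designed was not examined.

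**Figure D2:**
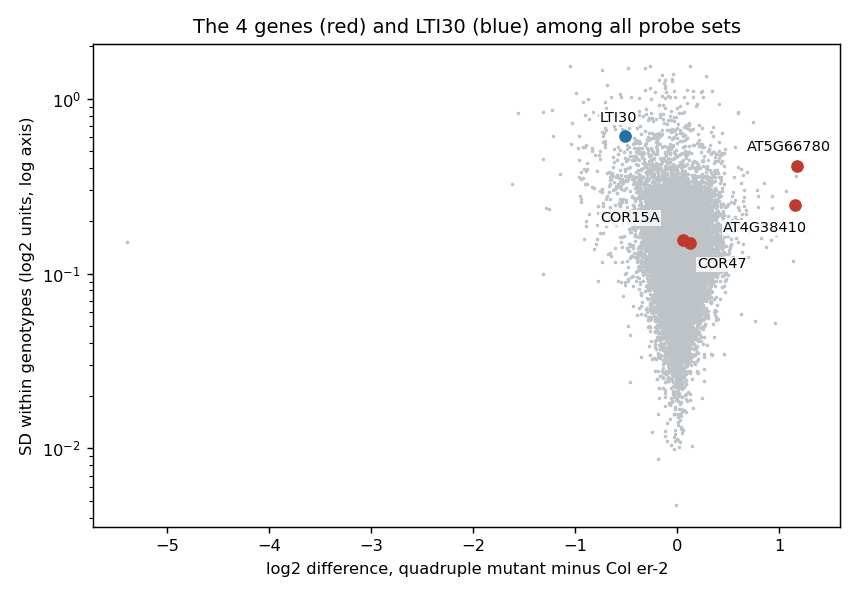
Each grey point is 1 of the 22746 probe sets, by its log2 difference of the quadruple mutant minus Col er-2 (horizontal axis) and its SD within genotypes in log2 units (vertical, log axis). AT4G38410 and AT5G66780 lie at the right edge of the cloud with SDs of 0.25 and 0.41, COR47 and COR15A lie inside it, and LTI30, described next, has an SD of 0.61.

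Of the 10 dehydrin genes of Arabidopsis, 6 could be named on the array. Limma called 0 of the 4 beyond AT4G38410 and COR47, beside 0.0264% of all probe sets. An unadjusted p under 0.05 was found for 1 of these 4, beside 7.47% of all probe sets. LTI30 (AT3G50970), a dehydrin that binds membranes and is induced by low temperature, had log2 signals of 9.78, 8.98 and 9.28 in mutant replicates 1, 2 and 3, against 10.73, 9.52 and 9.32 in Col er-2 replicates 1, 2 and 3. Its mean was lower in the mutant, the groups overlapped, and replicate 1 was the highest array of both genotypes. The difference of -0.51 had a standard error of 0.36 (limma, Benjamini-Hochberg adjusted p = 0.817). Without Col er-2 replicate 1 it was -0.07.

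AT1G54410, which encodes the small dehydrin HIRD11, had log2 signals of 11.64, 11.42 and 11.72 in mutant replicates 1, 2 and 3, against 11.94, 11.42 and 11.33 in Col er-2 replicates 1, 2 and 3. The groups overlapped, and the difference was 0.03 (adjusted p = 0.989 with limma and Benjamini-Hochberg). AT4G39130 differed by 0.0027 (adjusted p = 0.998), with means of 4.30 ± 0.15 in the mutant (SD, n = 3) and 4.30 ± 0.12 in Col er-2. AT2G21490, a dehydrin gene with the symbol LEA, had 4.07, 4.25 and 4.12 in the mutant against 4.32, 4.37 and 4.42 in Col er-2. Its groups did not overlap, and the difference of -0.22 had an adjusted p of 0.580. The signals of AT4G39130 and AT2G21490 both lay under the median of all probe sets. ERD10, ERD14, XERO1 and RAB18 had no probe set naming them alone and were not analysed here.

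Of the 42 genes on the list of other LEA-type genes, 31 could be named, and beyond COR15A and AT5G66780 that left 29. Limma called 0 of these 29, and 1 had an unadjusted p under 0.05, beside 0.0264% and 7.47% of all probe sets. There were 13 differences above 0 and 16 below, and 25 of the 29 had a mean signal under the median. The smallest p of the list was that of DI21 (AT4G15910), a drought-induced gene of the LEA family. It had log2 signals of 12.68, 12.64 and 12.75 in mutant replicates 1, 2 and 3, against 12.54, 12.44 and 12.45 in Col er-2 replicates 1, 2 and 3. Each mutant array lay above each Col er-2 array by a small margin, and the difference of 0.21 had a standard error of 0.08 (limma, Benjamini-Hochberg adjusted p = 0.577). The next genes by p were AT2G23120 at 0.16, AT3G53040 at 0.15, AT3G22490 at -0.15, AT2G42560 at -0.12 and AT5G38760 at -0.10, all differences on the log2 scale, with adjusted p of 0.817 to 0.850.

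Over both lists, the 33 genes beyond the 4 described had a median log2 difference of -0.02, beside 0.01 over all probe sets, and ran from -0.51 for LTI30 to 0.21 for DI21. Their groups did not overlap in 3 of 33, or 9.09%, beside 13.1% of all probe sets. Limma called 0 of the 33, beside 0.0264% of all probe sets. An unadjusted p under 0.05 was found for 2 of the 33, close to the share of 7.47% among all probe sets. The differences of AT4G38410 and AT5G66780 were above that of every other LEA-type gene measured, as a description, since both were chosen with these values known. Low signal limits this comparison, since 27 of the 33 had a mean under the median of all probe sets. The differences of these 27 ran from -0.22 to 0.15. Whether changes are understated at such low signals, as can happen with RMA, was not tested.

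**Figure D3:**
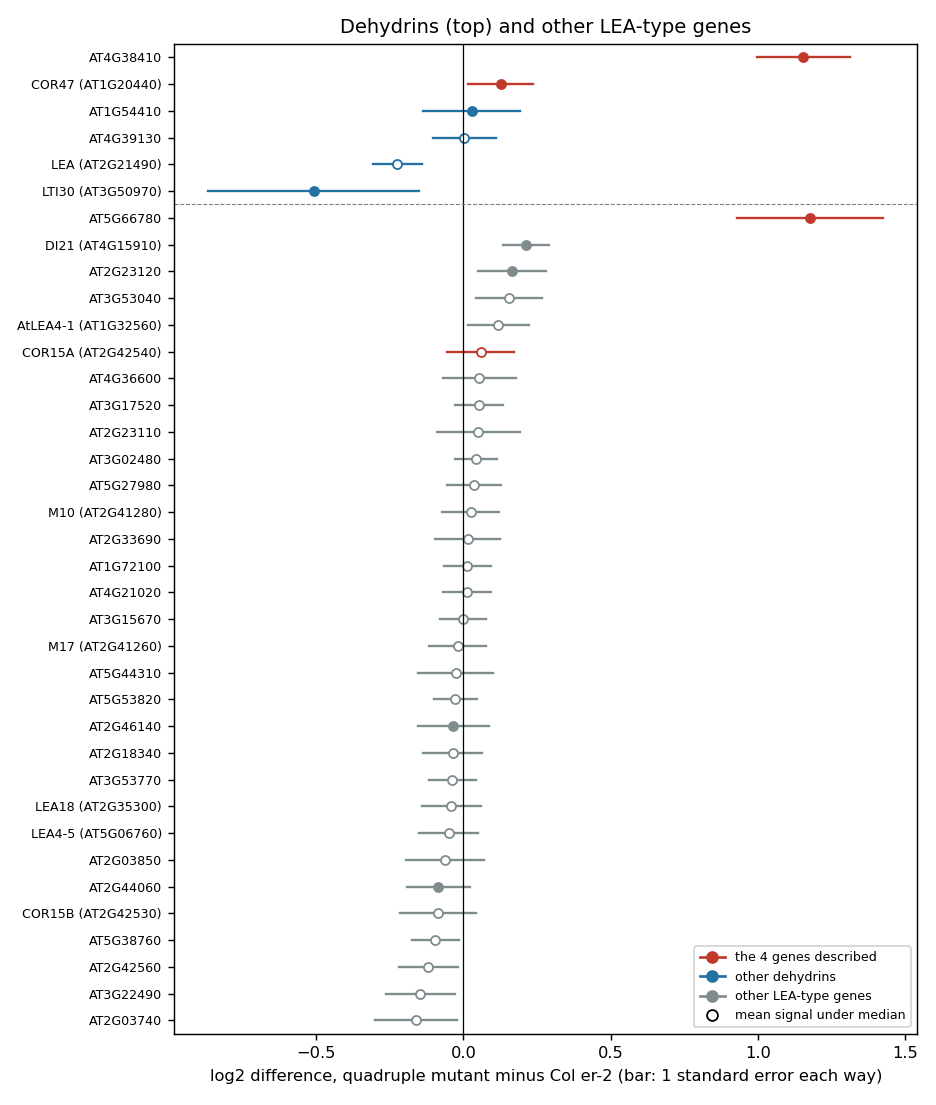
Log2 differences of the quadruple mutant minus Col er-2 (horizontal axis) for 6 dehydrin genes above the dashed line and 31 other LEA-type genes below it, with bars of 1 standard error each way and open circles for genes with a mean signal under the median of all probe sets. AT4G38410 and AT5G66780 lie at 1.15 and 1.18, and the others lie between -0.51 and 0.21.

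The arrays numbered 1 were read separately, because replicate 1 of both genotypes deviated together over all probe sets. Their deviations from the genotype means correlated at 0.504 over probe sets, which are not independent replicates, while the same correlation was 0.065 for the arrays numbered 2 and 0.176 for those numbered 3. Between a mutant and a Col er-2 array of unlike number it ran from -0.425 to 0.317 over 6 pairs. Deviations cancel out within a genotype, so these values are tied to those of equal number and are no independent yardstick. The LEA-type genes did not go one way with it. Against the mean of replicates 2 and 3, replicate 1 of AT5G66780 differed by -0.83 in the mutant and -0.49 in Col er-2, and that of AT4G38410 by -0.15 and -0.23. For COR47 the values were 0.08 in the mutant and 0.34 in Col er-2, and for LTI30 they were 0.65 and 1.31.

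In Col er-2, replicate 1 was the highest array for all 6 of the other LEA-type genes with a mean at or above the median signal, LTI30, AT1G54410, DI21, AT2G23120, AT2G46140 and AT2G44060, and for COR47. It was the lowest for AT4G38410 and AT5G66780. Among all probe sets at or above the median signal, Col er-2 replicate 1 was the highest array in 30.7% and the lowest in 43.9%. In the mutant, replicate 1 was the highest array for 3 of the 9 such genes, COR47, LTI30 and AT2G44060, and the lowest for 3, beside 35.5% and 33.8% of the probe sets at or above the median. Among all 33 other LEA-type genes, most of them dim, replicate 1 was the highest Col er-2 array in 22 and the lowest mutant array in 22. Each is 66.7%, beside 28.5% and 43.6% of all probe sets. These background shares change with signal, being 30.7% and 33.8% at or above the median. The shares among dim probe sets alone, the closer match for most of the 33, were not computed. Replicate 1 was the highest array of both genotypes for 3 of the 33 and the lowest of both for 3. Each is 9.09%, beside 11.6% and 20.3% of all probe sets. With both first replicates left out, which leaves 2 arrays a genotype, the log2 differences were 1.13 for AT4G38410, 1.29 for AT5G66780, 0.21 for COR47 and 0.06 for COR15A, and that of LTI30 was -0.29. Of the 33 other genes, 23 then had a difference above 0 and 10 below, against 15 and 18 with all arrays.

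**Figure D4:**
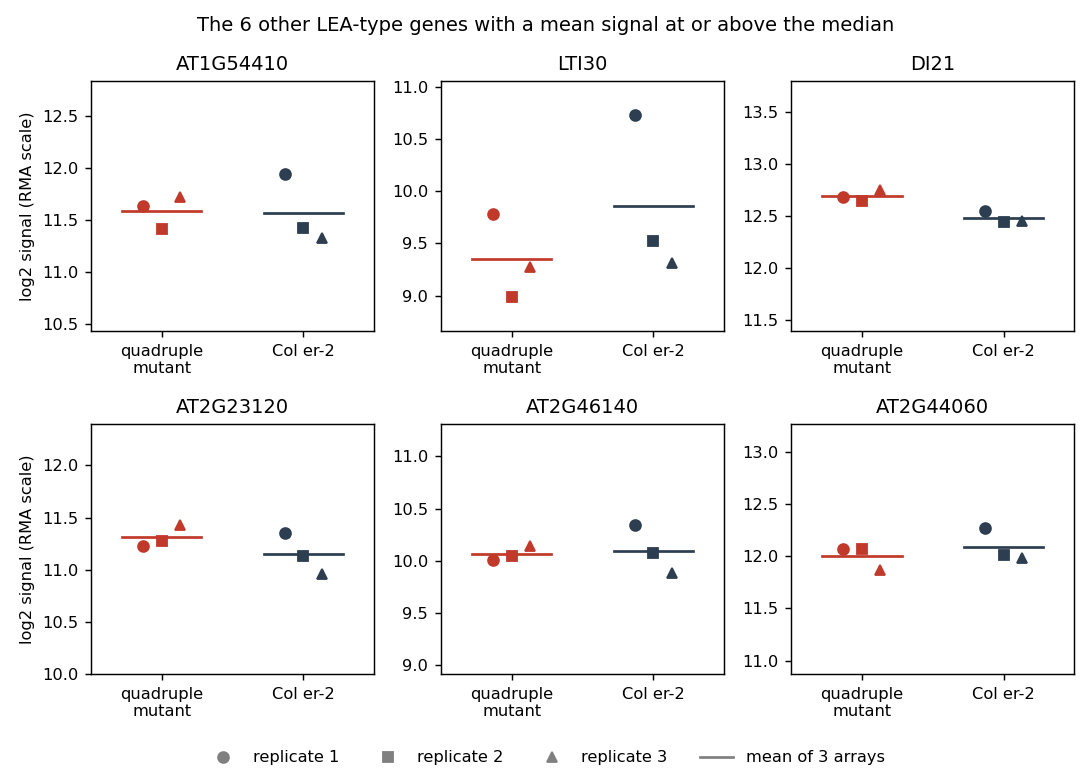
Log2 signal (vertical axis, each panel spanning the same length) of the 6 other LEA-type genes with a mean signal at or above the median, on the 3 quadruple mutant and the 3 Col er-2 arrays, with marker shape for the replicate number and a line at the mean of 3 arrays. Replicate 1 is the highest Col er-2 array in all 6 panels, at 10.73 for LTI30.

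ZAT10 (given as STZ in TAIR10.1), a zinc-finger gene, was the only 1 of 4 genes on the handling list that could be named. Handling could not be told apart from other inducers of this gene, so ZAT10 is not read as a measure of handling. Its log2 signals were 9.50, 9.01 and 8.70 in mutant replicates 1, 2 and 3, against 9.83, 9.63 and 8.03 in Col er-2 replicates 1, 2 and 3. Replicate 1 was the highest array of both genotypes for ZAT10, as it was for LTI30 and COR47. Its part in the values of those genes was not tested. Over the named genes of the other marker lists, the mean log2 signal per array was 5.62 to 5.77 in the mutant and 5.49 to 5.72 in Col er-2 for 4 of 10 root tip genes, which were BBM, JKD, ACR4 and AGL42. BBM, a factor that maintains root stem cells, was the only 1 of these 4 whose groups did not overlap, at 6.54, 6.71 and 6.71 in mutant replicates 1, 2 and 3, against 5.98, 6.43 and 6.28 in Col er-2 replicates 1, 2 and 3. Its difference was 0.42 (limma, Benjamini-Hochberg adjusted p = 0.463), and that of JKD was -0.14. The part of BBM in the values of AT4G38410 and AT5G66780 was not tested. Over all probe sets, the groups did not overlap for 13.1%. The mean was 5.15 to 5.36 in the mutant and 5.25 to 5.86 in Col er-2 for 2 of 5 green tissue genes. Of these, RCA did not overlap and differed by -0.33 (limma, adjusted p = 0.741). For 2 of 4 genes of root hairs and the maturing zone, the mean was 4.41 to 4.47 in the mutant and 4.37 to 4.71 in Col er-2. Of these, EXPA7 did not overlap and differed by -0.17 (limma, adjusted p = 0.716). The root cap gene AT1G65570, 1 of 4 on its list, was at 8.70 to 9.19 in the mutant and 7.95 to 8.73 in Col er-2. Its groups overlapped, and the difference was 0.43 (limma, adjusted p = 0.740). Without detection calls, absence of any of these markers could not be read.

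A list of 40 regulators and other targets of cold and abscisic acid signalling held, among others, the CBF factors, RD29A and the ABF factors. Of these, 0 could be named on the array, so that list could not be set beside these genes. KIN1 and KIN2 share a probe set that names both, and no value is given. A list added later held the 4 remaining genes with cold or drought in their TAIR10.1 names. Limma called 0 of these 4, and 0 had an unadjusted p under 0.05, beside 0.0264% and 7.47% of all probe sets. With so few genes, nothing is read from these counts. SRC2, a C2-domain protein gene first described as regulated by cold in soybean, had log2 signals of 9.27, 8.77 and 9.20 in mutant replicates 1, 2 and 3, against 9.73, 9.26 and 8.47 in Col er-2 replicates 1, 2 and 3. Its groups overlapped, and the difference was -0.07. DI19 differed by 0.0021, DOR by -0.01 and COR27 by -0.12.

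The genes whose signals went most like those of each of the 4 were named by Pearson's r over the 6 arrays, as a description, among named genes with at least 0.5 times its SD. For AT4G38410 they were AT1G29270 at 0.965, the dirigent-like gene AT1G55210 at 0.955 and AT3G48970, a gene with a heavy-metal-associated domain, at 0.944. All 3 had higher means in the mutant, with log2 differences of 1.15, 0.76 and 1.14, so the 6 arrays share the gap between genotypes in this measure. For AT5G66780 they were AT1G68430 at 0.961, AT5G14450 at 0.960 and AT1G05950 at 0.947, with differences of 0.60, 0.67 and 0.55. Of 308 genes compared with AT5G66780, 2 had an r over 0.95, and of 387 compared with AT4G38410, 2 had. For COR47 they were AT1G28150, AT3G13120 and AT4G09830 at 0.975 to 0.992, and for COR15A SEC, AT5G60630 and AT4G21323 at 0.983 to 0.988. As many as 20 of 11407 genes had an r over 0.95 with COR47 and 34 of 11688 with COR15A. The limit on SD left unlike numbers of genes, so the r values of the 4 are not compared with each other.

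PHV, the only HD-ZIP III gene that could be named, had log2 signals of 4.64, 4.93 and 4.66 in mutant replicates 1, 2 and 3, against 5.49, 5.80 and 5.68 in Col er-2 replicates 1, 2 and 3. It was lower on every mutant array, with a difference of -0.92 (limma, Benjamini-Hochberg adjusted p = 0.0639), and where the probe set lies relative to phv-6 is not known here. By the gene order of TAIR10.1, 598 protein-coding genes lie between AT4G38410 and ATHB8 on chromosome 4, and 849 between COR15A and PHB on chromosome 2. On chromosome 1, 959 lie between COR47 and PHV. AT5G66780 is on chromosome 5, which holds none of the mutated genes. Whether a segment carried along with a mutant allele reaches any of these genes was not tested.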

How the data were processed

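Transcript signals were measured on 6 ATH1 arrays from 250 ng of total RNA each. The deposited table gives 1 log2 signal per probe set and array. Per the submitters' processing notes, the tools were Affymetrix Expression Console, RMA and limma, with neither versions nor roles stated. That the log2 values are RMA signals, background corrected and quantile normalized, is inferred from these names and the range of the values. The labels give no batch. Whether replicates came from separate cultures beyond the word biological in the design text is not stated.

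Of 22810 probe sets, 64 controls were left out and 22746 tested with limma 3.58.1 in R 4.3.3 (lmFit, eBayes, Benjamini-Hochberg adjustment over all probe sets, threshold 0.05), as mutant minus Col er-2. Standard errors are moderated. The fit was tested on simulated data with independent noise, no shift shared by replicate number, and increases larger than any seen here. That test does not cover increases of the size seen or such a shared shift. Precision is limited by having 3 arrays per genotype. The probe table named 1 gene for 13513 probe sets, several for 503 and left 8730 unlisted. Loci were matched to TAIR10.1 for 13484, and the probe set with the highest mean stood for a gene. The files name no build, so no coordinates are given.

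The 4 genes and all lists were chosen with earlier results of these data known. The lists rest on family membership from general knowledge. Named were the 4 genes, every matched dehydrin, up to 6 genes of each further list by smallest p, HD-ZIP III genes, and for each of the 4 the 3 genes most alike. Marker genes were named where they moved with 1 of the 4, did not overlap between the genotypes or alone carried their list. COR15B, AT2G46140, AT2G44060, RCA, EXPA7 and the genes with cold or drought in their names were singled out only once their values were known. No test was made of the 4 genes beyond the count of calls. As alternatives, single arrays were left out, replicate numbers entered as a block, dim probe sets were removed, and the fit was rerun with trend and robust options, median centring, repeated quantile normalization and array weights. Correlations of deviations between arrays of equal number were 0.504, 0.065 and 0.176, not all above 0.1, so the numbers were not taken as pairs. A shift shared by arrays of equal number therefore stays in the error of the fit used. Standard errors of AT4G38410, COR47, COR15A and AT5G66780 were 0.158, 0.111, 0.114 and 0.248 in that fit. With the replicate block they were 0.12, 0.0998, 0.0987 and 0.108.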

Additional observations from a re-analysis of the deposited data

How the results depend on the processing

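The log2 differences of AT4G38410, COR47, COR15A and AT5G66780 moved by less than 1 SD within genotypes in all 13 alternatives run for each (12 for COR15A, which the filter on dim probe sets removes). With 1 array left out they ran from 0.97 to 1.28 for AT4G38410, 1.01 to 1.46 for AT5G66780, 0.04 to 0.24 for COR47 and -0.06 to 0.15 for COR15A, which was at -0.03 with array weights. Over all probe sets limma called 6. It called 109 with the replicate block (33 higher, 76 lower), 27 with trend and robust, 11 with repeated quantile normalization, 22 with array weights and 1 to 8 with 1 array left out, the low end being reached whichever mutant array was left out, with 3 without Col er-2 replicate 2. Of the 4 genes, 0 were called in the fit used, 2 with the replicate block (AT4G38410 and AT5G66780), 1 with trend and robust and 1 with array weights (AT4G38410 both times), and 0 in the other alternatives, each array left out included. The cause was not tested, and nothing is read from these calls, since the 4 genes were chosen on this contrast. None of the 33 other LEA-type genes (0 of 33) was called in any alternative, and their median difference ran from -0.04 to 0.05. PHV was called in 4 alternatives, which were array weights (-0.995), repeated quantile normalization (-0.913), the replicate block (-0.915) and trend and robust (-0.915). Differences near 0 turned sign: AT4G39130 (-0.0807 to 0.0721 with 1 array left out, -0.0222 with median centring, -0.0143 with array weights, -0.00822 without both first replicates), AT1G54410 (-0.0908 to 0.216 with 1 array left out) and AT3G22490 (-0.235 to -0.0587 with 1 array left out, 0.0085 without both first replicates). LTI30 ran from -0.78 to -0.07 with 1 array left out. The left-out first replicates, the count of calls among the 4 genes and the recomputed differences of other genes were added after the data were seen. A mean over several probe sets was not run, because each of the 4 genes has 1, and the cold and abscisic acid list gave no value.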
